A study of Mus musculus with 30 samples.

Results

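The uterus of mice without estrogen receptor alpha (ERa) was compared 2 h after an injection of insulin-like growth factor 1 (IGF1) and after saline vehicle, on 6 of the 30 arrays of the series, 3 for each group. The 6 arrays are those whose titles name the ERa knockout uterus with IGF1 at 2 h or with vehicle (V) at 24 h. Values were log2 signals of Affymetrix whole-transcript arrays, and 30142 genes with a symbol of their own were compared. A difference of 1 on this scale is a change of 2-fold.

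The mice of all groups were pre-pubertal females 21 days old, injected intraperitoneally. The knockout line (KO) is Ex3aERKO, and both groups compared carry it. The IGF1 group received 50 ug of IGF1 in PBS and was sampled 2 h later. The vehicle group received 100 ul of saline and was sampled after 24 h, so the comparison holds the agent, its solvent and the time since injection together, and these cannot be told apart within it. Further groups served as references: KO mice 2 h after 250 ng of estradiol (E2) in 100 ul of saline, KO mice 24 h after the start of 3 injections of 50 ug of IGF1, the last at 16 h, and wild-type (WT) mice with IGF1 at 2 h or vehicle at 24 h. The E2 group shares the KO genotype and the 2 h interval, but differs from the IGF1 group in agent and solvent. The labels do not say whether the 3 arrays of a group came from separate animals, so p-values measure the spread between these arrays, which may be technical, and the number of arrays limits their precision. In whole-organ RNA, fewer cells of a type and less RNA per cell cannot be told apart.

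IGF1 is a circulating and local growth factor that acts through the IGF1 receptor, a tyrosine kinase. From the receptor, signals run through insulin receptor substrates to PI3 kinase and AKT, which holds FoxO transcription factors out of the nucleus, and through RAS to the ERK kinases, which drive immediate early genes with the serum response factor SRF and its partners. In the uterus, IGF1 is known as a stromal product of estrogen action that promotes growth of the epithelium, and ERa is the receptor through which estradiol acts there.

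The genotype was checked on Esr1, the gene of ERa. The KO vehicle arrays read 10.41, 10.29 and 10.08 and the KO IGF1 arrays 9.75, 10.08 and 10.10 for replicates 1, 2 and 3, an order kept below for every gene. The WT vehicle arrays read 11.73, 12.43 and 12.73, above every KO array. Whether the Esr1 probes lie in the deleted part is not given, so the lower level is a limited check. Greb1, an estrogen target gene, lay within background on the KO arrays, and so did Esr2, the gene of the other estrogen receptor. A gene counts as within background on an array where it lies under a floor, the level that 95% of the 1083 genes of olfactory receptors stay below there. The floor lay between 5.82 and 6.23 on the 6 arrays.

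Of the 30142 genes, 2150 (7.13%) passed an adjusted p of 0.05 in limma (Benjamini-Hochberg) in KO IGF1 2 h against KO vehicle, 1262 (4.19%) higher and 888 (2.95%) lower. At least 2-fold changes among them numbered 434 higher (1.44%) and 200 lower (0.664%). The median change of all genes was -0.037 and the median standard error (SE) of a change 0.18. These calls, and every SE given, use the spread pooled over the 30 arrays of 10 groups and not that of the 6 arrays alone. Array weights of limma, lower for noisier arrays, were 0.676, 0.554 and 0.437 for IGF1 replicates 1, 2 and 3. For vehicle replicates 1, 2 and 3 they were 0.391, 1.1 and 1.44, and most other arrays weighed more than the IGF1 arrays. The pooled SE can thus understate the spread of the IGF1 group, and adjusted p-values can look firmer than these arrays allow. With only the 6 arrays compared in the fit, limma called 0 genes, while 3893 had an unadjusted p under 0.05; in the fit over all arrays 6052 did (20.1%).

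The 3 IGF1 arrays did not differ from vehicle to the same extent, and replicate 3 stood apart. Against the mean of the 3 vehicle arrays, replicate 1 had 1652 genes more than 2-fold higher and 752 more than 2-fold lower, and replicate 2 had 1109 and 816. Replicate 3 had 408 and 81. A vehicle array set against the mean of the other 2 gave 566 higher and 370 lower for replicate 1, 103 and 219 for replicate 2, and 267 and 225 for replicate 3. Replicate 3 of IGF1 thus had fewer genes past 2-fold than vehicle replicate 1 had against its own group.

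**Figure D1:**
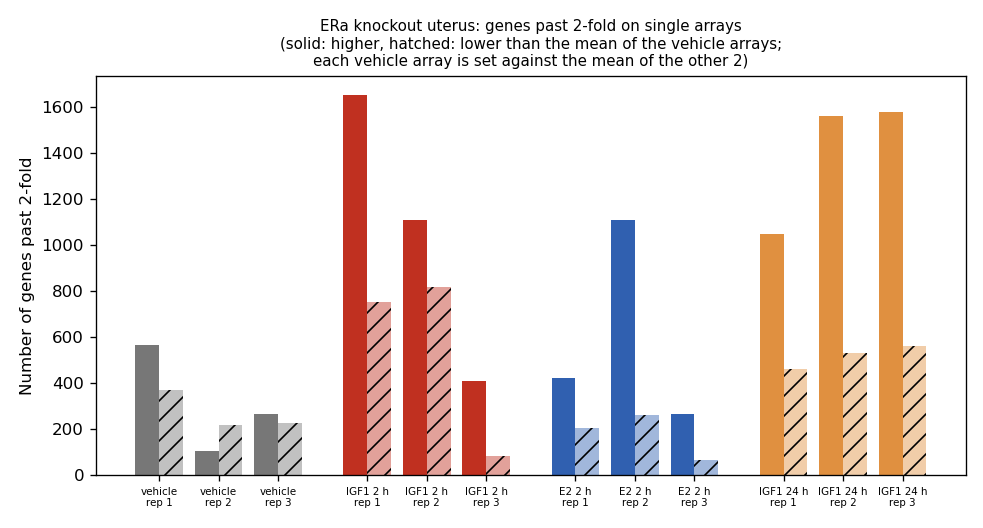
Number of genes past 2-fold on each KO array (vertical axis), higher as solid and lower as hatched bars, against the mean of the 3 KO vehicle arrays or, for a vehicle array, the mean of the other 2. IGF1 2 h replicate 3, with 408 higher and 81 lower, sits far below replicate 1 with 1652 and 752 and replicate 2 with 1109 and 816.

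Across all genes, replicate 3 had a mean correlation of 0.981 with the other IGF1 arrays, 0.987 with the vehicle arrays and 0.989 with the KO E2 2 h arrays. For replicate 1 the same values were 0.983, 0.973 and 0.98, and for replicate 2 they were 0.982, 0.975 and 0.973. Replicate 3 was therefore nearer to both other groups than to its own. The cause, such as the injection, the label or the tissue makeup of this sample, was not tested. Over the 434 genes called at least 2-fold higher, the median difference from vehicle was 1.84, 1.49 and 0.63 on the 3 IGF1 arrays. Replicate 3 was the least changed array at 360 of them, yet lay above every vehicle array at 377 (86.9%). Over the 200 genes called at least 2-fold lower, the medians were -1.60, -1.60 and -0.52, and replicate 3 lay below every vehicle array at 140 (70.0%). These counts describe the arrays that gave the calls and are no test of them.

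Without IGF1 replicate 1 the comparison called 310 genes (1.03%), 211 higher (0.7%) and 99 lower (0.328%). Without replicate 2 it called 898 (2.98%), 596 higher (1.98%) and 302 lower (1%), and without replicate 3 it called 3900 (12.9%), 2204 higher (7.31%) and 1696 lower (5.63%). Leaving out a vehicle array gave 1302 without replicate 1, 1224 without replicate 2 and 1438 without replicate 3. Of the 2150 genes, 278 were called whichever of the 6 arrays was left out, 193 higher and 85 lower. Below, these genes are said to hold without any 1 array.

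The 12 largest rises whose arrays did not overlap were Ccl12, Spry4, Thbs1, Egr1, Tnfrsf12a, Slc25a48, Itga5, Hdc, Cdkn1a, Ccl2, Lrp2 and Ccl7, led by Ccl12 at 14.2-fold, and all 12 held without any 1 array. The 12 largest falls were Hpgds, Arrdc3, Speer4e, Zc3h6, Speer4d, Sesn3, Cxcr4, Per3, Fam214a, Cped1, Pot1a and Mtmr14. Of these, Hpgds, Zc3h6, Pot1a and Mtmr14 held without any 1 array. Arrdc3, Per3, Fam214a and Cped1 lost the call without IGF1 replicate 1 or replicate 2, Sesn3 without either of those or vehicle replicate 1 or 3, Cxcr4 without IGF1 replicate 1 or vehicle replicate 2 or 3, Speer4d without IGF1 replicate 1, and Speer4e without IGF1 replicate 1 or vehicle replicate 3. Speer4d and Speer4e, and the chemokine genes Ccl2, Ccl7 and Ccl12, have near-identical relatives whose signals the probes may share.

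**Figure D2:**
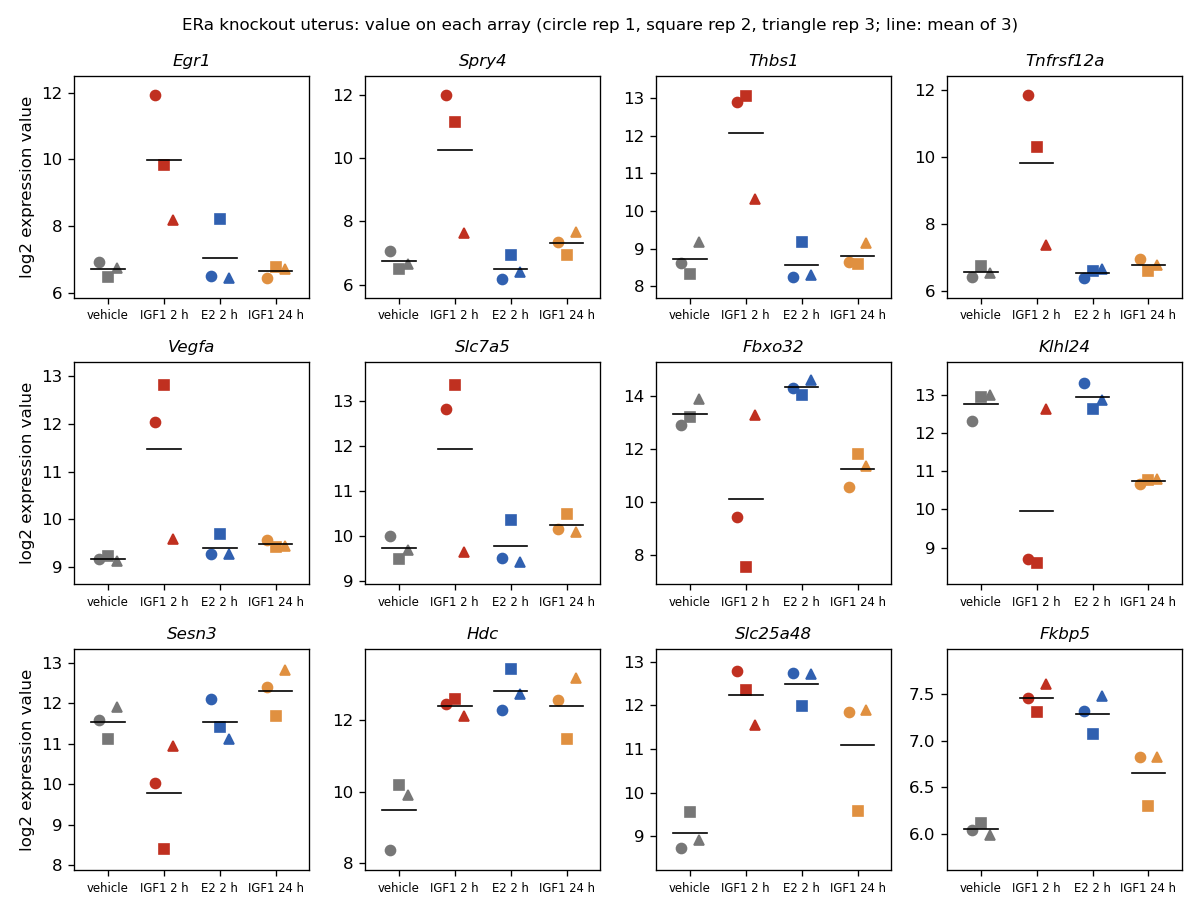
Log2 value (vertical axis) of 12 genes on the KO arrays by group: vehicle, IGF1 2 h, E2 2 h and IGF1 24 h; circle, square and triangle are replicates 1, 2 and 3 and the line is the mean of 3. The triangle of IGF1 2 h lies beside the vehicle arrays for Fbxo32, Klhl24, Slc7a5 and Vegfa, and with the other IGF1 arrays for Hdc and Fkbp5.

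Among the immediate early genes, which are transcribed within minutes of growth factor signals, 17 of 26 rose and 0 fell, and the median change of the list was 0.94. Egr1, a zinc finger transcription factor, read 6.91, 6.46 and 6.73 with vehicle and 11.93, 9.84 and 8.19 with IGF1. The IGF1 arrays lay above all vehicle arrays but spanned a wide range, with replicate 3 lowest. The change was 3.29 ± 0.57 (SE from the pooled spread, n = 3 per group), 9.77-fold, with a limma adjusted p of 0.00148. Srf, the gene of serum response factor, read 8.18, 8.75 and 8.57 with vehicle and 11.12, 10.73 and 9.90 with IGF1. It rose by 2.08 ± 0.28, 4.23-fold, with a limma adjusted p of 0.000267, and no IGF1 array came near the vehicle arrays.

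Nr4a1, an orphan nuclear receptor, read 6.38, 6.47 and 6.34 with vehicle and 9.28, 8.24 and 7.84 with IGF1, and rose by 2.05 ± 0.28 (limma adjusted p 0.000267). Zfp36, which encodes an RNA-binding protein that destabilises cytokine messages, read 11.04, 11.01 and 11.01 with vehicle and 13.30, 12.45 and 13.72 with IGF1. Here replicate 3 was the highest array, and the change was 2.14 ± 0.34 (limma adjusted p 0.00087). Myc, a transcription factor of growth, read 10.67, 10.03 and 9.85 with vehicle and 11.23, 12.15 and 10.98 with IGF1, a change of 1.27 (limma adjusted p 0.0058). Fos and Nr4a3 lay within background on all vehicle arrays, so that only bounds can be given: Fos was at least 1.04-fold higher and Nr4a3 at least 1.21-fold. The rise held without any 1 array for Csrnp1, Egr1, Klf10, Nr4a1, Nr4a3, Srf and Zfp36. The count was 8 without IGF1 replicate 1, 17 without replicate 2 and 15 without replicate 3, and the medians on the 3 single arrays were 0.97, 0.72 and 0.79, so this list was about as high on replicate 3 as on the others.

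Promoters of the early genes Srf and Zfp36 are shown because they hold the CArG box of SRF, a factor named above. The promoter of the feedback gene Errfi1 is shown because it holds the cyclic AMP response element (CRE), TGACGTCA. The CRE was searched as well and is not tied here to the pathways named above. Each promoter is the 250 bases before a RefSeq start on build GRCm38.p6, written 5' to 3' on the gene's strand, with the matches in capitals. The genes were chosen after their values were seen. Srf (chr17:46556163-46556412, minus strand) holds 2 CArG boxes, the first from base -82 to base -73 before the start. Zfp36 (chr7:28379229-28379478, minus strand) holds 1 from -58 to -49. Errfi1 (chr4:150854820-150855069, plus strand), an inhibitor of the epidermal growth factor receptor described with the feedback genes, holds a CRE from -51 to -44 at 1 of its 2 starts.
Srf: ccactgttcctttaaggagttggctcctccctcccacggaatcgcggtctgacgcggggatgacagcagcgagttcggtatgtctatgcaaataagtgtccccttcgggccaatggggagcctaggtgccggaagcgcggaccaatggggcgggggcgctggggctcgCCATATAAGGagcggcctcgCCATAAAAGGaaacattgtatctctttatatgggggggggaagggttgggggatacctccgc
Zfp36: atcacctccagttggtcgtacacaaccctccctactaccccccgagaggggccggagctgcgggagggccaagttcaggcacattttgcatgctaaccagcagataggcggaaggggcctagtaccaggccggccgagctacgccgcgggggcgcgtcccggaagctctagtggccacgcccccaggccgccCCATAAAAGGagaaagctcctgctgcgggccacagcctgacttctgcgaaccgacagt
Errfi1: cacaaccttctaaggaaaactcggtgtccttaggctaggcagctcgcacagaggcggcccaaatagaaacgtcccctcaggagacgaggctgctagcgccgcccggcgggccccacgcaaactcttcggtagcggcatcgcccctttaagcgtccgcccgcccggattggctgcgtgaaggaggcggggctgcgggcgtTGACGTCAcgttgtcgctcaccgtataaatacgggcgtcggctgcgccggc

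The search covered both strands of the 21882 such promoters that belong to 17970 of the genes tested. A CArG box was in 1.36% of all of them, in 11 of the 338 promoters (3.25%, 8 genes) of genes called at least 2-fold higher and in 2.27% of those of genes called at least 2-fold lower. In the immediate early list it was in 6 of 29 promoters (20.7%), which belong to 3 of the 20 genes with a promoter. Several of these promoters are overlapping starts of Egr2 that share a box, so the same letters are counted more than once. The Egr2 starts are also among the 11 promoters of the rises. A CRE was in 1.88% of all promoters, in 14 of 338 (4.14%) of the rises and in 2.27% of the falls. The AP-1 motif TGAGTCA, which shares its first 3 and last 3 letters with the CRE but cannot be the same match, was in 4.23% of all, 4.44% of the rises and 1.14% of the falls. A match is a description of the letters and not a site of binding.

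Feedback genes of the RAS and ERK pathway rose at 7 of 19 members and fell at 0, with a median change of 0.33. Many of them are switched on by ERK and have products that dampen it, but some, such as Etv4 and Etv5, are not inhibitors. Spry4, a Sprouty inhibitor of receptor tyrosine kinase signalling, read 7.07, 6.49 and 6.65 with vehicle and 12.01, 11.13 and 7.63 with IGF1. Replicates 1 and 2 stood far above vehicle and replicate 3 less than 1 unit above its highest array. The change was 3.52 ± 0.65, 11.5-fold (limma adjusted p 0.00254). Dusp6, the phosphatase of ERK, read 7.68, 7.83 and 7.74 with vehicle and 10.84, 9.74 and 8.09 with IGF1, a rise of 1.81 (limma adjusted p 0.00722) that lost the call without IGF1 replicate 1. Errfi1, whose promoter is shown above, read 8.63, 8.39 and 8.29 with vehicle and 11.17, 10.23 and 9.22 with IGF1, and rose by 1.77 ± 0.33 (limma adjusted p 0.0027). Errfi1, Spry4, Dusp7 and Spred1, another inhibitor of the same pathway, held without any 1 array, and the count was 4, 6 and 8 without IGF1 replicates 1, 2 and 3.

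The list of SRF targets and matricellular genes, whose products build the actin skeleton and its contacts with the matrix, had 10 of 20 members higher, 0 lower and a median of 0.70. Thbs1, the gene of thrombospondin 1, read 8.63, 8.33 and 9.18 with vehicle and 12.89, 13.05 and 10.31 with IGF1. It rose by 3.37 ± 0.44, 10.3-fold (limma adjusted p 0.000243), and without IGF1 replicate 1, 2 or 3 in turn the rise was 2.97, 2.89 or 4.26. Tnfrsf12a, the receptor of the cytokine TWEAK, read 6.42, 6.77 and 6.55 with vehicle and 11.85, 10.30 and 7.38 with IGF1, a rise of 3.27 ± 0.57, 9.64-fold (limma adjusted p 0.00171). Both genes were above vehicle on every IGF1 array, with replicate 3 lowest. Has1, a hyaluronan synthase, read 7.70, 6.87 and 7.41 with vehicle and 8.72, 10.01 and 8.62 with IGF1, a rise of 1.79 (limma adjusted p 0.000644). These 3 genes held without any 1 array, and the list had 3, 6 and 10 members higher without IGF1 replicates 1, 2 and 3, and 6, 6 and 10 without the vehicle replicates. Outside the list, Itga5, the fibronectin receptor subunit, read 7.91, 8.04 and 8.16 with vehicle and 11.92, 11.84 and 9.10 with IGF1, a rise of 2.92 ± 0.42 (limma adjusted p 0.000516).

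Genes that FoxO factors are known to switch on, which growth factor signals through AKT keep low, fell at 6 of 26 members and rose at 1, with a median of -0.54. On the single arrays the median was -0.81 and -0.84 on replicates 1 and 2, but 0.08 on replicate 3. Fbxo32, a ubiquitin ligase of muscle atrophy, read 12.92, 13.22 and 13.88 with vehicle and 9.44, 7.55 and 13.31 with IGF1. Replicates 1 and 2 were lower than any vehicle array by more than 3 units, and replicate 3 lay among the vehicle arrays. The change was -3.24 ± 0.81 (limma adjusted p 0.0158), and -2.91, -1.97 and -4.85 without IGF1 replicates 1, 2 and 3 (limma adjusted p 0.116, 0.119 and 1.15e-06). The call was also lost without vehicle replicate 3.

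Klhl24, a keratin-associated ubiquitin ligase adaptor, showed the same order, with 12.32, 12.95 and 13.02 with vehicle and 8.70, 8.58 and 12.64 with IGF1. It changed by -2.79 ± 0.63 (limma adjusted p 0.00894), and by -4.12 without replicate 3. Arrdc3, an arrestin-like protein, read 12.80, 13.14 and 12.65 with vehicle and 9.20, 9.86 and 12.64 with IGF1 (change -2.30 ± 0.50, limma adjusted p 0.0076), with replicate 3 just under the lowest vehicle array. Pik3ip1, an inhibitor of PI3 kinase, read 7.96, 8.22 and 8.25 with vehicle and 6.46, 6.54 and 7.47 with IGF1, so that it was lower on all 3 arrays. Its change was -1.32 ± 0.21 (limma adjusted p 0.00087), and it was the member of the list that held without any 1 array. Sesn3, a stress-induced regulator of growth signalling, and Ccng2, a cyclin that restrains division, also fell. Bcl6, a repressor in the same list, rose by 1.29 (limma adjusted p 0.0289) but lost the call without any of 4 arrays: IGF1 replicate 1 or 3, or vehicle replicate 1 or 2. Without IGF1 replicate 3 the list had 14 members lower and 0 higher, without replicate 1 or replicate 2 it had 1 lower, and without vehicle replicates 1, 2 and 3 it had 4, 5 and 3 lower.

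**Figure D3:**
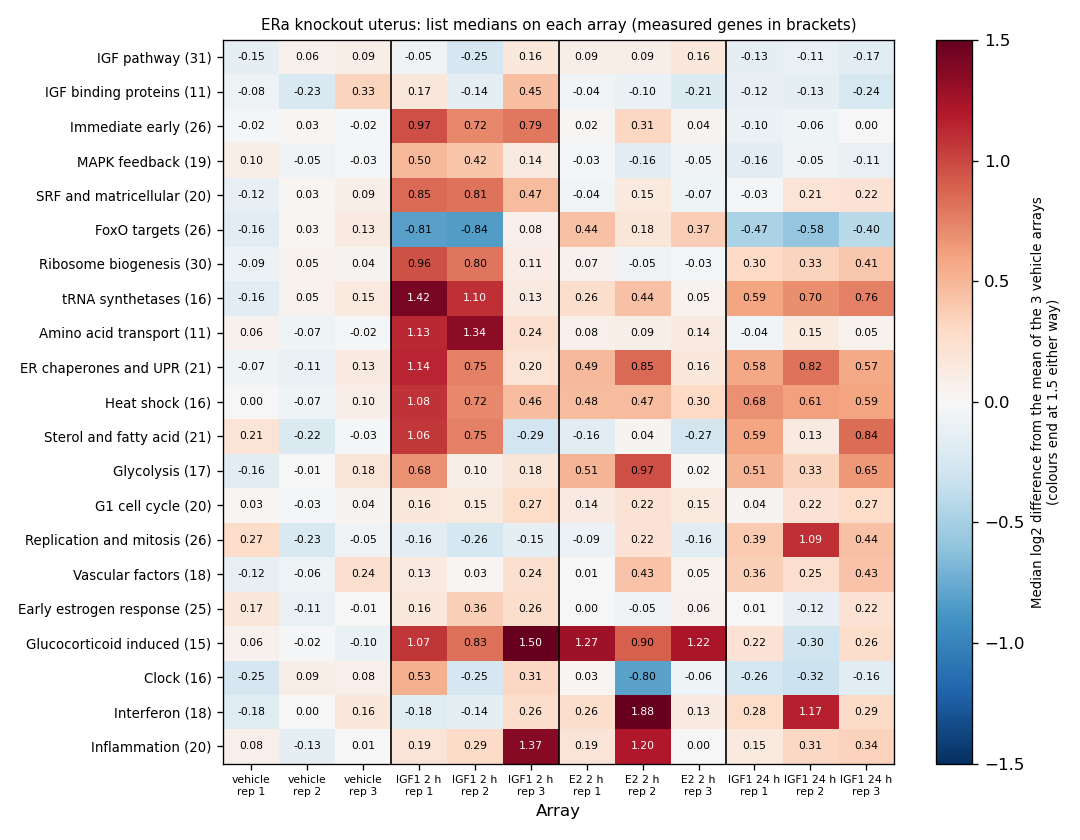
Median log2 difference from the mean of the 3 KO vehicle arrays (colour) for each of 21 pathway gene lists (rows) on each of 12 KO arrays (columns). The FoxO target row is -0.81 and -0.84 on IGF1 replicates 1 and 2 and 0.08 on replicate 3, while the immediate early row is 0.97, 0.72 and 0.79.

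The FoxO motif GTAAACA was searched on both strands of the same promoters. It was in 2.85% of all, in 13 of the 176 promoters (7.39%, 12 genes) of genes called at least 2-fold lower, in 4 of 338 (1.18%) of those called at least 2-fold higher, and in 3 of 27 (11.1%) of the FoxO list. Those 3 belong to Txnip, Btg1 and Trim63, which were not called. No match was found for the called falls of that list, Fbxo32, Klhl24, Arrdc3, Pik3ip1, Sesn3 and Ccng2. The letters of the FoxO motif cannot coincide with those of the CRE or the AP-1 motif. Pot1a and Mtmr14 are shown, chosen after their values were seen, because both were among the 12 largest falls and held without any 1 array. Pot1a (chr6:25809219-25809468, minus strand) has the motif on the opposite strand, as TGTTTAC, from base -96 to base -90. Mtmr14 (chr6:113237593-113237842, plus strand) has it from -21 to -15.
Pot1a: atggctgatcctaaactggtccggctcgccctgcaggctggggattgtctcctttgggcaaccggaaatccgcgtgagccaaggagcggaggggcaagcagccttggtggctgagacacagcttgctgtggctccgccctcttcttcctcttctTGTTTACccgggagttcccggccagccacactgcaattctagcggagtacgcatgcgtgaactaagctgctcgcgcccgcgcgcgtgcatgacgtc
Mtmr14: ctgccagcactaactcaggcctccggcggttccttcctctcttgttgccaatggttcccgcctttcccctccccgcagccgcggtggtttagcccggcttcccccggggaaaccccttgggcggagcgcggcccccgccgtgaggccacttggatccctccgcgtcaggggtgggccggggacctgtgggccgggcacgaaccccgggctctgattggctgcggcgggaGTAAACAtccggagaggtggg

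Pot1a, a protein of chromosome ends, read 9.88, 9.53 and 9.49 with vehicle and 7.52, 7.63 and 9.30 with IGF1, a change of -1.48 (limma adjusted p 0.00267). Mtmr14, a phosphoinositide phosphatase, read 9.81, 10.08 and 9.81 with vehicle and 8.10, 8.07 and 9.22 with IGF1, a change of -1.44 (limma adjusted p 0.00213). In both, replicates 1 and 2 were far below vehicle, and replicate 3 was just below. Zc3h6, a zinc finger protein, read 8.85, 9.27 and 9.24 with vehicle and 6.71, 6.42 and 8.24 with IGF1, a change of -2.0 ± 0.27 (limma adjusted p 0.000267). Like Mtmr14, it was below every vehicle array on all 3 IGF1 arrays.

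Of the 31 genes of the IGF1 pathway itself, 3 rose and 3 fell, and the median change was -0.05. Grb10, an adaptor that restrains the insulin and IGF1 receptors, read 8.21, 8.49 and 8.49 with vehicle and 9.81, 9.46 and 9.09 with IGF1, a rise of 1.06 ± 0.18 (limma adjusted p 0.00124). Its relative Grb14 moved the other way, from 8.48, 8.14 and 8.49 to 6.66, 6.86 and 7.44, a change of -1.39 ± 0.21 (limma adjusted p 0.000701). Both had every IGF1 array outside the vehicle range, and with Pik3ip1, which this list shares with the FoxO list, they held without any 1 array. The kinase genes Akt1 (0.69, limma adjusted p 0.0134) and Pdpk1 (0.50, limma adjusted p 0.0418) rose and Foxo4 (-0.60, limma adjusted p 0.0171) fell, and each lost the call without at least 1 array.

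The ligand and receptor genes were not called. Igf1 read 9.18, 9.17 and 9.79 with vehicle and 9.28, 8.76 and 9.96 with IGF1, a difference of -0.05 (limma adjusted p 0.951) whose sign changed with the setting. Igf1r read 11.93, 12.55 and 12.21 with vehicle and 11.16, 10.71 and 12.31 with IGF1, a difference of -0.84 (limma adjusted p 0.139). Irs2, an insulin receptor substrate and a FoxO target, read 9.98, 9.89 and 10.71 with vehicle and 8.75, 7.70 and 10.99 with IGF1. Its difference of -1.04 was not called (limma adjusted p 0.257), and without replicate 3, which lay above all vehicle arrays, it was -1.97 (limma adjusted p 0.00122). None of the 11 genes of IGF-binding proteins and related carriers was called by limma in either direction. With 7.13% of all genes called, this count says little about the list. Without IGF1 replicate 2, 1 of the 11 was called lower, and without replicate 3, 1 was called higher. Without IGF1 replicate 3 the pathway list had 6 members higher and 11 lower, without replicate 1 or 2 it had 1 and 2, and without vehicle replicate 1 also 1 and 2.

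Genes of protein production had more rises than falls in each list, and the list medians of replicate 3 lay closer to vehicle than those of replicates 1 and 2. Ribosome biogenesis genes rose at 17 of 30 members and fell at 0, with a median of 0.68 and 29 of 30 differences above 0. The median was 0.96 and 0.80 on replicates 1 and 2 and 0.11 on replicate 3. Ddx21, a nucleolar RNA helicase, read 8.74, 9.20 and 9.06 with vehicle and 12.36, 11.82 and 9.78 with IGF1, and rose by 2.32 ± 0.42 (limma adjusted p 0.00216). Heatr1, a factor of ribosomal RNA processing, read 8.21, 8.48 and 8.25 with vehicle and 10.61, 10.51 and 8.69 with IGF1, a rise of 1.63 (limma adjusted p 0.00287). Both lay above vehicle on all 3 IGF1 arrays and were the members that held without any 1 array. The count of rises was 2 without IGF1 replicate 1, 4 without replicate 2 and 24 without replicate 3, and 8, 10 and 11 without vehicle replicates 1, 2 and 3.

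The cytosolic tRNA synthetases, which charge tRNAs with amino acids, rose at 9 of 16 members with all 16 differences above 0 and a median of 0.90. Their medians on the single arrays were 1.42, 1.10 and 0.13. Iars, the isoleucyl enzyme, read 9.34, 9.28 and 9.24 with vehicle and 11.47, 11.53 and 9.48 with IGF1, a rise of 1.54 (limma adjusted p 0.00722). Of the amino acid transporters, 6 of 11 rose and 0 fell, with a median of 0.99. Slc7a5, the large neutral amino acid carrier, read 9.99, 9.49 and 9.68 with vehicle and 12.81, 13.35 and 9.64 with IGF1. Replicates 1 and 2 were more than 2 units above vehicle and replicate 3 was among the vehicle arrays, and the change was 2.21 ± 0.60 (limma adjusted p 0.025). Slc7a1, the cationic carrier, read 8.46, 8.00 and 8.03 with vehicle and 11.30, 10.90 and 8.41 with IGF1, a rise of 2.04 (limma adjusted p 0.00625). No member of either list held without any 1 array: the synthetases had 0, 1 and 13 higher without IGF1 replicates 1, 2 and 3, and the transporters 0, 1 and 7, with 1 lower as well in the last. Without vehicle replicates 1, 2 and 3 the synthetases had 4, 7 and 8 higher and the transporters 4, 5 and 4.

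Genes of endoplasmic reticulum folding and the unfolded protein response rose at 11 of 21 members and fell at 0, with a median of 0.67. Atf4, the transcription factor of the amino acid response, read 8.90, 8.85 and 8.73 with vehicle and 11.78, 10.51 and 9.15 with IGF1, a rise of 1.66 (limma adjusted p 0.00852). Asns, asparagine synthetase and a target of ATF4, read 6.76, 6.56 and 7.10 with vehicle and 10.47, 10.42 and 6.96 with IGF1. Replicate 3 was within the vehicle range, and the change was 2.48 ± 0.58 (limma adjusted p 0.0117), with 7.08e-07 without replicate 3 and 0.132 and 0.0844 without replicates 1 and 2. Hspa5, the chaperone BiP, read 10.55, 10.55 and 11.06 with vehicle and 12.75, 12.03 and 11.58 with IGF1, a rise of 1.4 (limma adjusted p 0.00474) that was above vehicle on all 3 arrays. No member of the list held without any 1 array, and the counts of rises were 0, 4 and 13 without IGF1 replicates 1, 2 and 3 and 6, 5 and 8 without the vehicle replicates.

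Heat shock genes rose at 10 of 16 members and fell at 0, with a median of 0.75 and single-array medians of 1.08, 0.72 and 0.46. Hsph1, a large HSP70 relative, read 8.89, 8.68 and 8.55 with vehicle and 11.82, 11.23 and 10.25 with IGF1. It rose by 2.39 ± 0.30, 5.25-fold (limma adjusted p 0.000243), and every IGF1 array was more than 1 unit above vehicle. Hspb1, a small heat shock protein, read 7.75, 7.70 and 8.13 with vehicle and 9.40, 8.89 and 8.62 with IGF1, a rise of 1.11 (limma adjusted p 0.00504) that lost the call without IGF1 replicate 1. Bag3, Chordc1, Hspa8, Hsph1 and Stip1, chaperones and co-chaperones, held without any 1 array, and the count of rises was 5, 8 and 13 without IGF1 replicates 1, 2 and 3. Hspa1a has a near-identical copy and its rise is not assigned to 1 gene.

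The heat shock element, searched as GAANNTTC, which reads the same on both strands, was in 6.12% of all promoters, in 4.44% of those of genes called at least 2-fold higher, in 6.82% of those called at least 2-fold lower and in 4 of 18 (22.2%) of the heat shock list. Those 4 belong to Hspa1a, Hspb1, Hspd1 and Hspe1. The promoters of Hspd1 and Hspe1 overlap on opposite strands, and their match is the same stretch of bases, counted for both genes. No match was found for Bag3, Chordc1, Hspa8, Hsph1 and Stip1, the members that held without any 1 array. The heat shock element cannot coincide with the other motifs searched. The promoter of Hspb1 (chr5:135887669-135887918, plus strand) is shown, chosen after its values were seen, since it holds 2 matches, the first from base -117 to base -110.
Hspb1: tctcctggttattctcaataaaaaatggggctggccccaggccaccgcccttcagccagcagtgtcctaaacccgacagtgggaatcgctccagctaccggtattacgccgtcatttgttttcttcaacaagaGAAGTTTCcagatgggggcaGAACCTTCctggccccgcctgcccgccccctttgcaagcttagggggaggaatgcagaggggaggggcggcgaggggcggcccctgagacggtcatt

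**Figure D4:**
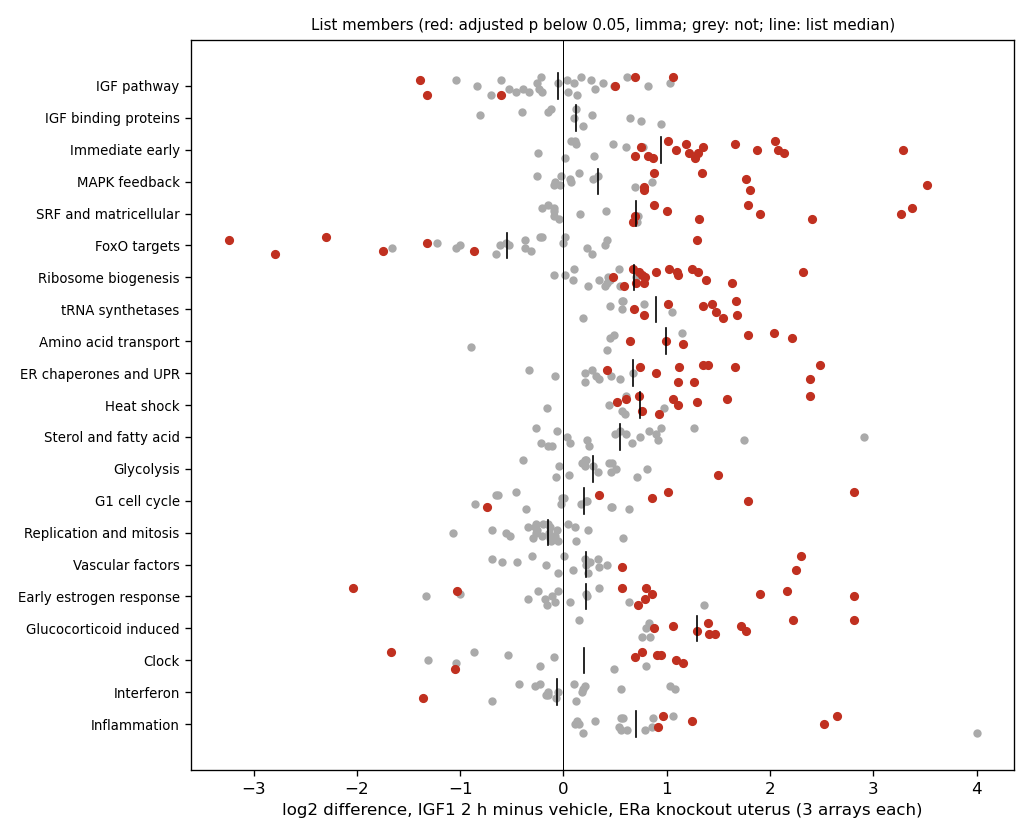
Log2 difference of KO IGF1 2 h from KO vehicle (horizontal axis) for each measured member of 21 pathway gene lists (rows); red points passed an adjusted p of 0.05 in limma, grey points did not, and the line is the list's median. The immediate early, ribosome biogenesis, tRNA synthetase and glucocorticoid rows lie mostly to the right of 0, and the FoxO row to the left at a median of -0.54.

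Genes of the response to glucocorticoids, steroid hormones of the adrenal that rise under stress, rose at 10 of 15 members, fell at 0 and had the highest median of the 21 pathway lists, 1.29, with all 15 differences above 0. Replicate 3 was the highest array here, with medians of 1.07, 0.83 and 1.5. Fkbp5, a co-chaperone of the glucocorticoid receptor and its target, read 6.04, 6.12 and 5.99 with vehicle and 7.46, 7.31 and 7.61 with IGF1, a rise of 1.41 ± 0.19, limma adjusted p 0.000243. Vehicle replicates 1 and 3 lay within background, so the size of this rise is uncertain. The KO E2 2 h arrays read 7.32, 7.08 and 7.48, as high as the IGF1 arrays, and the difference between IGF1 and E2 was 0.17 with a 95% interval from -0.22 to 0.55. Zbtb16, a repressor induced by glucocorticoids, read 7.64, 8.22 and 7.77 with vehicle, 9.53, 8.91 and 11.86 with IGF1 and 11.53, 10.51 and 12.52 with E2. Over the whole list the E2 arrays had medians of 1.27, 0.90 and 1.22. Cdkn1a, Errfi1, Fkbp5, Sgk1 and Sult1a1 held without any 1 array, and the count was 6, 12 and 6 without IGF1 replicates 1, 2 and 3 and 8, 7 and 6 without the vehicle replicates. Mt1 and Mt2 are close relatives and may share signal.

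Of 16 clock genes, 6 rose and 2 fell, with a median of 0.20. Clock read 10.71, 10.86 and 10.76 with vehicle and 12.30, 12.01 and 11.30 with IGF1, a rise of 1.09 (limma adjusted p 0.00111). Cry1, a repressor of the clock, read 8.07, 8.39 and 8.42 with vehicle, 9.85, 9.50 and 9.02 with IGF1 and 8.26, 8.10 and 8.24 with E2 at 2 h. It rose by 1.16 ± 0.17 (limma adjusted p 0.000434), and the E2 arrays lay at the vehicle level. Per3 fell from 10.07, 10.62 and 10.34 to 8.16, 8.13 and 9.74 (change -1.67, limma adjusted p 0.00791), and Dbp from 9.95, 10.17 and 10.21 to 9.06, 8.62 and 9.50 (change -1.05, limma adjusted p 0.0088). Clock, Cry1 and Nfil3 held without any 1 array. The list had 3 higher and 0 lower without IGF1 replicate 1, 7 and 0 without replicate 2, 5 and 6 without replicate 3, 5 and 4 without vehicle replicate 1 and 3 and 2 without vehicle replicate 3. The labels used here give no hour of the day, and the vehicle interval differed from that of IGF1, so the part of the time of sampling in these values was not tested.

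Inflammatory genes had all 20 differences above 0 and a median of 0.70, and 5 rose. Ccl2, a chemokine of monocytes, read 7.39, 7.28 and 6.91 with vehicle and 8.80, 9.24 and 11.48 with IGF1, a rise of 2.65 (limma adjusted p 0.0114). Ccl7 read 5.89, 5.77 and 6.24 with vehicle and 7.66, 7.82 and 9.98 with IGF1, a rise of 2.52 (limma adjusted p 0.00243) whose size is uncertain, since 2 of its 3 vehicle arrays lay within background. Ccl12 read 7.2, 7.07 and 6.44 with vehicle and 10.64, 9.76 and 11.78 with IGF1, a rise of 3.82 ± 0.50 (limma adjusted p 0.000243). In all of these replicate 3 was the highest, and the list medians on the single arrays were 0.19, 0.29 and 1.37. The neutrophil gene S100a8 read 5.46, 5.03 and 7.10 with vehicle and 8.55, 9.60 and 11.45 with IGF1, a difference of 4.0 that was not called (limma adjusted p 0.154). Ccl2 and Ccl7 held without any 1 array, and the count was 3 without IGF1 replicate 3 and 3 and 2 without vehicle replicates 1 and 3. Of 18 interferon genes, 1 changed, Ifit2, which fell by 1.36 (limma adjusted p 0.0217) and lost the call without IGF1 replicate 1 or 2 or vehicle replicate 1 or 3. Over all genes 7.13% were called in either direction, so a count of 1 says little about the interferon list.

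Of 21 genes of sterol and lipid synthesis, limma called 0, with a median of 0.55 and single-array medians of 1.06, 0.75 and -0.29. Without IGF1 replicate 3, 8 rose, among them Sqle, squalene epoxidase, at 1.55 (limma adjusted p 0.00301). Of 26 genes of DNA replication and mitosis limma called 0, with a median of -0.15. With 7.13% of all genes called, a count of 0 says little about this list or the sterol and lipid list. Of 20 genes of the G1 phase 5 rose and 1 fell, with a median of 0.19, and 2 or 3 rose without any 1 array other than IGF1 replicate 3. Cdkn1a, the cell cycle inhibitor p21, read 7.72, 7.11 and 7.55 with vehicle and 12.31, 9.30 and 9.18 with IGF1, a rise of 2.81 ± 0.50 (limma adjusted p 0.00197), with replicate 1 far above the others. Ccnd2, the cyclin D2 gene, rose by 1.01 (limma adjusted p 0.0197) but not without IGF1 replicate 1 or 2 or vehicle replicate 1 or 2.

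Of 17 genes of glycolysis 1 rose, Pfkfb3, which makes an activator of the pathway, by 1.5 (limma adjusted p 0.00639), a call lost without IGF1 replicate 1. Over all genes 4.19% were called higher, so a count of 1 says little about this list. Of 18 angiogenic genes 3 rose. Vegfa, the main growth factor of blood vessels, read 9.16, 9.23 and 9.12 with vehicle and 12.04, 12.81 and 9.57 with IGF1, a rise of 2.30 ± 0.46 (limma adjusted p 0.00424), and 3.25 without replicate 3. The call was lost without replicate 1 (limma adjusted p 0.0524). Ptgs2, a prostaglandin synthase, read 5.59, 6.28 and 6.87 with vehicle, the first within background, and 8.19, 9.58 and 7.73 with IGF1, a rise of 2.25 ± 0.33 (limma adjusted p 0.000516) that held without any 1 array.

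Of 25 genes known to rise early after estrogen in the uterus, 8 rose and 2 fell in these ERa knockout uteri, with a median of 0.22. B4galt5, a glycosyltransferase, read 7.46, 7.71 and 7.84 with vehicle and 10.32, 10.16 and 9.01 with IGF1, a rise of 2.16 (limma adjusted p 0.00109). B4galt5, Nrip1, a nuclear receptor corepressor, and Cdkn1a held without any 1 array. The counts of rises were 3, 6 and 6 without IGF1 replicates 1, 2 and 3 and 5, 5 and 4 without the vehicle replicates. The falls were Rspo3, a WNT agonist, and Sox4, a transcription factor, and with each array centred on its median no member was called lower by limma. The count of falls was also 0 without IGF1 replicate 1 or 2 or vehicle replicate 1 or 3, it was 1 without vehicle replicate 2, and it was 4 without IGF1 replicate 3. Pgr, the progesterone receptor gene, read 13.88, 14.06 and 13.45 with vehicle and 13.27, 14.61 and 12.77 with IGF1, and the ranges overlapped.

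Hpgds, the haematopoietic prostaglandin D synthase, was the largest fall among called genes whose arrays did not overlap, from 12.96, 13.46 and 11.93 with vehicle to 8.81, 9.13 and 10.93 with IGF1. The change was -3.16 ± 0.43 (limma adjusted p 0.000267), and the E2 2 h arrays, at 10.08, 8.73 and 9.53, were as low. Hdc, histidine decarboxylase, which makes histamine, went the other way, with 8.36, 10.18 and 9.91 with vehicle, 12.45, 12.60 and 12.13 with IGF1 and 12.29, 13.44 and 12.72 with E2. It rose by 2.91 ± 0.47 (limma adjusted p 0.00102), and the IGF1 and E2 arrays overlapped, with a difference of -0.43 and a 95% interval from -1.39 to 0.54. Slc25a48, a mitochondrial carrier, read 8.72, 9.56 and 8.91 with vehicle, 12.79, 12.36 and 11.54 with IGF1 and 12.73, 11.99 and 12.71 with E2, and the difference of IGF1 from E2 was -0.25 with a 95% interval from -1.22 to 0.73. Lrp2, a large endocytic receptor, read 6.19, 6.97 and 6.84 with vehicle, 9.80, 9.70 and 8.15 with IGF1 and 9.68, 10.89 and 10.48 with E2. For Hpgds, Hdc, Slc25a48 and Lrp2 the E2 group, which shares the 2 h interval, was on average at least as far from vehicle as the IGF1 group, and both are compared here with the same vehicle arrays.

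Set directly against KO E2 2 h, the group of the same interval, KO IGF1 2 h had 916 genes called (3.04%), 573 higher (1.9%) and 343 lower (1.14%), and the median over all genes was 0.031. With only these 6 arrays in the fit limma called 0, with 2661 at an unadjusted p under 0.05. Without IGF1 replicate 1 the count was 34 (0.113%), 28 higher (0.0929%) and 6 lower (0.0199%), and without replicate 2 it was 41 (0.136%), 35 higher (0.116%) and 6 lower (0.0199%). Without replicate 3 it was 2922 (9.69%), 1606 higher (5.33%) and 1316 lower (4.37%). Without E2 replicates 1, 2 and 3 it was 423, 373 and 518. Over all these, 25 genes kept the call, 22 higher and 3 lower.

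The genes that kept it included Thbs1, with 8.24, 9.17 and 8.30 with E2 against 12.89, 13.05 and 10.31 with IGF1, a difference of 3.51 ± 0.44, 11.4-fold (limma adjusted p 0.000352). Nr4a1 kept it too, with 6.26, 6.46 and 6.0 with E2 against 9.28, 8.24 and 7.84 with IGF1 (difference 2.21, limma adjusted p 0.000352), and so did Cry1 (1.26, limma adjusted p 0.000476). Npas2, a partner of the clock protein BMAL1, was lower than after E2 in every such fit, with 8.52, 8.71 and 9.42 with E2 against 7.31, 7.19 and 8.14 (difference -1.34, limma adjusted p 0.00119). In none of these genes did the arrays of the groups overlap. Egr1 read 6.49, 8.22 and 6.43 with E2, a difference of 2.94 (limma adjusted p 0.00949) that lost the call without IGF1 replicate 1 or 2 (limma adjusted p 0.0835 and 0.0592). Spry4 read 6.18, 6.92 and 6.4 with E2, a difference of 3.76 (limma adjusted p 0.00536) that lost it in the same fits (limma adjusted p 0.0633 and 0.0597). Fbxo32 read 14.33, 14.06 and 14.63 with E2, above all vehicle and IGF1 arrays, and differed by -4.24 ± 0.81 (limma adjusted p 0.00894), a call also lost without IGF1 replicate 1 or 2 (limma adjusted p 0.0838 and 0.0891).

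By list, immediate early genes were higher after IGF1 than after E2 at 11 of 26 members and feedback genes at 7 of 19. SRF and matricellular genes were higher at 5 of 20 and ribosome biogenesis genes at 16 of 30. In each of these lists 0 were lower. FoxO targets were lower at 9 of 26, with a median of -0.99 and 0 higher. Glucocorticoid genes differed at 1 of 15, with a median of 0.16. In immediate early genes Myc, Nr4a1 and Nr4a3 kept the call without any 1 array, in the SRF list Ccn1, Has1 and Thbs1, and in the feedback list Spred1. No ribosome biogenesis or FoxO member did: without IGF1 replicate 1 or 2 both counts were 0, and without replicate 3 they were 23 and 17. Without E2 replicates 1, 2 and 3 they were 8, 6 and 5 for ribosome biogenesis and 3, 7 and 4 for FoxO targets. Immediate early genes numbered 3, 4 and 12 without IGF1 replicates 1, 2 and 3. In the same fits feedback genes numbered 1, 1 and 9, and SRF and matricellular genes 4, 3 and 8. Among called genes without overlap, leaving out the pseudogene Speer8-ps1, those lower than after E2 were led by Fbxo32, followed by Aox3, an aldehyde oxidase, Cp, ceruloplasmin, Mmp7, a matrix protease of epithelium, and the chemokine receptor Ccr2, with differences from -2.38 for Aox3 (limma adjusted p 0.0173) to -1.78 for Ccr2 (limma adjusted p 0.0479). Fbxl20, a ubiquitin ligase subunit, completed these 6 largest, and the 6 largest in the other direction were Spry4, Thbs1, Tnfrsf12a, Ccl12, Ccn1 and Itga5. Of these 12 genes 3 kept the call without any 1 array.

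E2 itself, set against the same KO vehicle arrays, had 110 genes called (0.365%), 78 of them higher (0.259%), with 0 immediate early genes, 1 FoxO target higher and 4 of 15 glucocorticoid genes higher. That comparison shares its vehicle arrays with the IGF1 comparison. The KO E2 replicate 2 array stood apart from its group, with 1110 genes more than 2-fold above vehicle against 423 and 264 on the others.

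By 24 h, after 3 injections, the early genes were low again. Between 2 h and 24 h of IGF1 in the KO, 2707 genes (8.98%) were called, 1711 (5.68%) higher at 24 h and 996 (3.3%) lower, with a median over all genes of 0.007. With only these 6 arrays in the fit limma called 131, with 5140 at an unadjusted p under 0.05. The count was 2173 (7.21%), 1483 (4.92%) and 3241 (10.8%) without IGF1 2 h replicates 1, 2 and 3, and 2008, 1717 and 1569 without the 24 h replicates, and 925 genes were called in all of these, 610 higher and 315 lower.

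Immediate early genes were lower at 24 h at 20 of 26 members, 15 of them without any 1 array, and higher at 0. Egr1 at 24 h read 6.45, 6.76 and 6.71, at the vehicle level, and fell by 3.35 ± 0.57 from the 2 h value (limma adjusted p 0.000662). Thbs1 at 24 h read 8.65, 8.59 and 9.15, 3.29 below its 2 h mean (limma adjusted p 8.1e-05). Feedback genes were lower at 10 of 19, SRF and matricellular genes at 7 of 20, and glucocorticoid genes at 8 of 15. Sult1d1, a sulfotransferase, had been raised at 2 h, with 14.35, 13.83 and 14.74 against 11.77, 12.57 and 12.16 with vehicle, and read 10.88, 10.01 and 10.50 at 24 h, 14.3-fold lower (limma adjusted p 2.03e-05).

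Genes of DNA replication and mitosis were higher at 24 h than at 2 h at 15 of 26 members, with a median of 0.77 and 0 lower. Mki67, a marker of dividing cells, went from 6.72, 5.84 and 6.90 to 8.25, 10.69 and 8.38 (difference 2.62, limma adjusted p 0.00597), a call lost without 24 h replicate 2, the highest. Aurka, Mcm3, Mcm5 and Mcm6 kept theirs without any 1 array. Vcan, the proteoglycan versican, went from 8.24, 8.86 and 8.53 to 12.42, 11.54 and 12.22, 11.4-fold (limma adjusted p 3.65e-06), and Igfbp5 from 12.41, 11.04 and 11.15 to 14.22, 14.90 and 14.30 (difference 2.94, limma adjusted p 0.00162). Sesn3, a FoxO target, had left its low 2 h level, with 12.40, 11.70 and 12.83 at 24 h against 10.04, 8.39 and 10.95 at 2 h and 11.58, 11.12 and 11.91 with vehicle. In the FoxO list 1 member was higher and 1 lower at 24 h than at 2 h, with a median of -0.03.

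The same comparison of IGF1 2 h with vehicle in WT mice had 5178 genes called (17.2%), 2875 (9.54%) higher and 2303 (7.64%) lower. Its median over all genes was -0.083. The WT groups share no array with the KO groups, but both comparisons use the same spread of each gene, pooled over all arrays of the series. The calls in KO and WT are thus not independent, since a gene of small pooled spread is more readily called in both. Of the 1262 rises in KO, 1027 were also called higher in WT (81.4% of the KO list and 35.7% of the WT list) and 0 were called lower. Of the 888 falls, 627 were also called lower (70.6% and 27.2%) and 0 higher. A gene called in WT alone is not thereby shown to differ. The test of the difference itself, the change in KO minus that in WT, called 4 genes (0.0133%), while 2071 had an unadjusted p under 0.05 (6.87%). Its median SE was 0.255. With only the 12 arrays of the 4 groups limma called 0, with 1300 at an unadjusted p under 0.05.

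**Figure D5:**
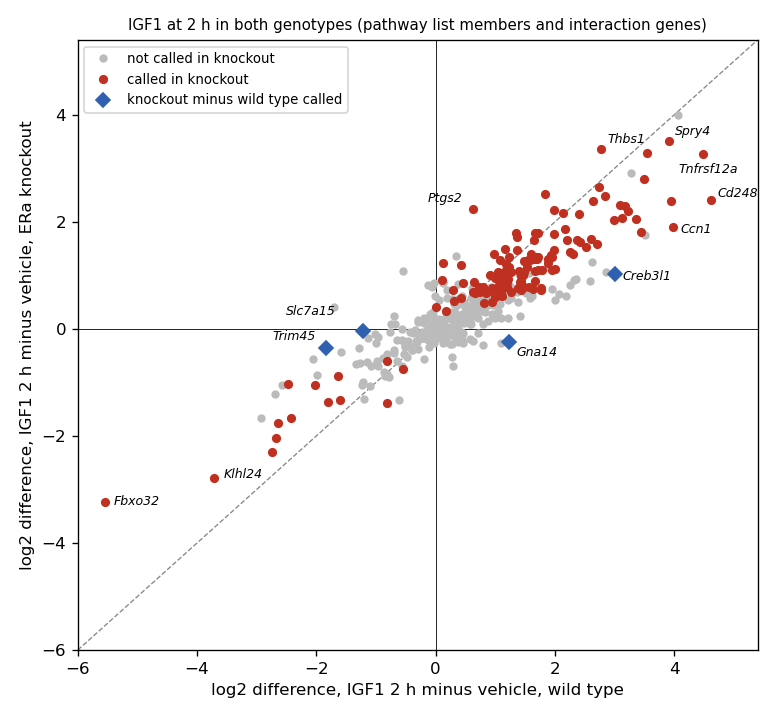
Log2 change 2 h after IGF1 in WT (horizontal axis) and in KO (vertical axis) of the measured members of the 21 pathway lists and the 4 genes called in the test of the difference, with the line of equal change dashed; red points were called in KO and blue diamonds are those 4 genes. The red points lie in the lower left and upper right, and of the genes called in KO 0 were called in the opposite direction in WT.

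Creb3l1, a membrane-bound transcription factor of secretory cells, read 6.57, 6.23 and 6.59 with vehicle and 7.85, 7.38 and 7.22 with IGF1 in KO, and 6.68, 6.39 and 6.43 with vehicle and 9.60, 9.12 and 9.79 with IGF1 in WT. Its rise was 1.02 in KO and 3.01 in WT, a difference of -1.99 ± 0.33 (limma adjusted p 0.0356). Gna14, a G protein subunit, changed by -0.25 in KO and by 1.23 in WT, where it went from 8.59, 8.21 and 8.39 to 9.72, 9.44 and 9.73 (difference -1.49 ± 0.24, limma adjusted p 0.0356). Trim45, a ubiquitin ligase, changed by -0.36 in KO, from 6.57, 6.33 and 6.57 to 5.92, 5.99 and 6.46, and by -1.83 in WT, from 8.09, 8.18 and 8.38 to 6.65, 5.80 and 6.71 (difference 1.47 ± 0.25, limma adjusted p 0.0469). The KO vehicle arrays of Trim45 lay near background, and 1 KO and 1 WT IGF1 array within it, so a fall as large as that in WT could not have been measured in KO. Slc7a15 lay within background in both KO groups, while in WT it changed by -1.21, from 6.59, 6.08 and 6.48 to 5.28, 5.04 and 5.21 (difference 1.17 ± 0.19, limma adjusted p 0.0356), where the WT IGF1 arrays were within background too, so that the fall was at least 1.38-fold. A fall of Slc7a15 in KO could not have been measured, and the size of the difference is limited by background. Each of the 4 calls was lost when any KO vehicle array was left out, when WT IGF1 replicate 1 or 3 was left out, or when WT vehicle replicate 3 was. Without KO IGF1 replicate 3 limma called 1 gene, which was none of these 4.

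Of the pathway lists, WT had 19 immediate early genes higher of 26, 14 FoxO targets lower of 26, 27 ribosome biogenesis genes higher of 30 and 15 sterol and lipid genes higher of 21, against 17, 6, 17 and 0 in KO, and none of these genes differed between genotypes by the adjusted test of the difference. The median of the change in KO minus that in WT was -1.23 over the sterol and lipid genes, below 0 at all 21, -0.45 over the ribosome biogenesis genes, below 0 at all 30, -0.25 over the immediate early genes and 0.41 over the FoxO targets, against 0.027 over all genes. Without KO IGF1 replicate 3 the KO counts, in the order given, were 15, 14, 24 and 8. They were 8, 1, 2 and 0 without replicate 1 and 17, 1, 4 and 0 without replicate 2. Members of a list share the same arrays, so a shared sign is not repeated evidence of a difference between genotypes. Egr1 rose by 3.54 in WT and 3.29 in KO, a difference of -0.25 with a 95% interval from -1.9 to 1.4. Thbs1 rose by 2.78 in WT and 3.37 in KO, a difference of 0.59 with a 95% interval from -0.70 to 1.88. Fbxo32 changed by -5.54 in WT and -3.24 in KO, a difference of 2.30 with a 95% interval from -0.05 to 4.65. These intervals are wide, and the lack of a call does not show that the genotypes responded alike.

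The single IGF1 arrays carried genes of their own, by the largest distance from both other arrays. Replicate 1 had Krt15 at 15.34 against 7.08 and 7.62, Krt5 at 14.61 against 7.30 and 7.25, and Cyp2f2 at 14.52 against 7.10 and 8.59, of which the first 2 are keratins of stratified epithelium. Replicate 2 had Ucp1, the uncoupling protein of brown fat, at 10.39 against 3.48 and 3.62. Replicate 3 had S100a9, a neutrophil gene, at 11.25 against 7.57 and 7.46. It also stood apart at Klhl24, Chac1, Fbxo32 and Spry4, where it lay nearer to vehicle. These genes were picked for this pattern, and it is given with no test.

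Marker lists of cell types are given on the log2 scale of their summed signal, in which the brightest members weigh most. Smooth muscle markers (10 genes) summed to 17.06 to 18.29 on the vehicle arrays and 17.46 to 18.67 on the IGF1 arrays, with a median difference of 1.09 and 3 called higher, which became 0 and 1 without IGF1 replicates 1 and 2, and none of the 3 kept the call in every fit that left out 1 array. Stromal markers (11) summed to 17.67 to 18.40 and 16.31 to 18.19. Epithelial markers (13) summed to 15.30 to 15.99 and 15.79 to 16.18. Markers of smooth muscle, stroma and epithelium thus gave signal on all 6 arrays, while the labels name only the uterus and no cell types. Adipocyte markers (8) ranged from 11.46 to 14.86 and from 14.13 to 16.07, with 8 of 8 differences above 0, a median of 1.74, and 1 gene, Lep, called, a call lost without IGF1 replicate 1 or 2 or vehicle replicate 1 or 2. Of the 8 adipocyte markers, 1 lay within background with vehicle and 0 with IGF1. Mast cell markers (8) ranged from 9.84 to 11.02 and from 12.38 to 12.76, without overlap, though Hdc was the only member called and the median difference of the list was 0.00, 0.02 and 0.22 on the 3 IGF1 arrays, and mesothelial markers from 11.84 to 13.11 and from 13.02 to 13.58. Neutrophil markers ranged from 9.04 to 9.76 and from 9.76 to 12.47, highest on replicate 3, the array of highest Ccl2, Ccl7 and Ccl12, with 6 of 10 members within background with vehicle and 5 with IGF1. None of these 10 was called, which says little where 7.13% of all genes were, and 4 differences were above 0. The list medians on the 3 IGF1 arrays were -0.14, 0.03 and 0.06, so the summed signal does not stand for the list as a whole. The part of these cell types in the changes of Hdc, the chemokines, the SRF targets and the lipid genes was not tested.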

How the data were processed

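The 6 arrays of KO uterus with vehicle or IGF1 at 2 h come from a series of 30 Affymetrix arrays. Per the labels' protocols, Trizol and RNeasy were used to extract RNA, and the WT Plus kit to amplify and label 300 ng of it. The values are log2 signals as the authors deposited them, for 72688 probe sets, up to a highest value of 19.93; their software, normalization and build are, in the sources used here, not given.

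Of the probe sets, 30604 with 1 gene symbol gave 30142 genes, after 827 symbols were updated (for 355 genes with several, the probe set of highest mean was used), and 2146 with several symbols and 39938 not listed in the annotation were tested apart. With limma (version 3.58.1, in R 4.3.3, with version 1.17.8 of data.table) a mean per group was fitted to the 30 arrays, with 20 degrees of freedom from residuals and 3.66 from the prior of eBayes, and p-values of limma were adjusted over all genes by the Benjamini-Hochberg method. Genes at an adjusted p under 0.05 were called. The fit was tested on simulated data. Where a group lay under the floor on all 3 arrays, a fold is given as "at least", from the floor.

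The samples, the 21 pathway lists and 15 marker lists (548 of 602 members matched) and the alternatives were chosen with earlier results of these data known. Named genes are the 12 largest rises and 12 largest falls that were called, at least 2-fold and without overlap (6 each way against E2 and against 24 h, up to 8 each way between genotypes), of each list the 5 members that changed most, 8 genes of estrogen and IGF1 signalling, of which Insr had no probe set of its own, and the 5 genes farthest from both other arrays on each IGF1 array. Predicted genes, pseudogenes, clones, small RNAs and olfactory receptors were left out. List members named beyond these, such as those holding their call, were chosen after their values were seen. Promoters are from RefSeq (GRCm38.p6). Alternatives were centring, quantile normalization, a filter on dim genes, the mean of probe sets, other priors, array weights, a replicate block, only the groups compared, and each array left out.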

Additional observations from a re-analysis of the deposited data

Results flagged for a closer look

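The change 2 h after IGF1 differed between KO and WT at 4 genes by limma's test of the difference, taken as the change in KO minus that in WT. The difference was -1.99 for Creb3l1, -1.49 for Gna14, 1.17 for Slc7a15 and 1.47 for Trim45. Creb3l1 rose less in KO than in WT, and Gna14 changed by 1.23 in WT and by -0.25 in KO. Trim45 and Slc7a15 fell in WT from levels that KO did not reach under either treatment. Slc7a15 lay within background in both KO groups and Trim45 near it, so that a fall like that in WT could not have been measured there and the sizes of these 2 differences are limited by background.

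Among probe sets outside the table of genes, which the comparison of KO IGF1 2 h with KO vehicle did not use, 185 of the 2146 with several gene symbols were called by limma (8.62%), 91 higher and 94 lower. Of the 39938 that the annotation does not list, 771 were called (1.93%), 220 higher and 551 lower in the deposited scaling. What these probe sets measure is not known here.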

How the results depend on the processing

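The calls depended on the pooled spread and on single arrays. With only the groups compared in the fit, limma called 0 genes against KO vehicle and 0 against KO E2 2 h. It called 131 between 24 h and 2 h and 0 between genotypes. In these fits fewer arrays set the spread, and the KO IGF1 2 h arrays make up a larger share of them. The reason for the lower counts was not tested. Leaving out each array in turn gave 310 to 3900 genes against vehicle, 34 to 2922 against E2, 1483 to 3241 between 24 h and 2 h and 0 to 8 between genotypes. Against vehicle the other settings gave 1925 genes with arrays centred on their medians, 2291 with quantile normalization, 2557 with dim genes left out, 2177 with array weights and 2033 with a trended prior, against 2150. The share of higher calls was 58.7%, and 69.6% centred and 47.2% after quantile normalization; between 24 h and 2 h it was 63.2%, 62.9% and 55.9%. Between genotypes quantile normalization called 0 (2436 at an unadjusted p under 0.05), dim genes left out 7 and array weights 8, and the cause was not tested. Leaving out the arrays of lowest weight, a choice made after seeing the data (WT vehicle replicate 1 with the KO E2 24 h array of replicate 2), gave counts of 2982 against vehicle, 1307 against E2 and 3478 between 24 h and 2 h.

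Replicate numbers did not pair the arrays: same-numbered KO IGF1 2 h and vehicle arrays deviated together at r = -0.194, 0.007 and 0.11. With a replicate block 2113 genes were called against vehicle, 2001 of them shared with the fit without it, 860 against E2, 2701 between 24 h and 2 h and 3 between genotypes.

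The sign turned at genes that were not called: Igf1 from -0.05 to 0.01 centred, and from -0.36 to 0.24 over the arrays left out, S100a9 from -0.19 to 1.71 and Pgr from -0.78 to 0.14. Of the values of single named genes, 116 lost their call and 45 kept their side with only the groups compared, and 60, 43 and 8 lost it without IGF1 replicates 1, 2 and 3. Signals near the floor limit the folds of Fos, Nr4a3, Nfil3, Chac1 and Plk3 to bounds.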
